A study of Danio rerio with 9 samples.

Results

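Forced expression of *msgn1* was compared with wild type in zebrafish tailbuds, using the 3 tg(*hsp70l:msgn1*) and the 3 wild-type samples of a series of 9 RNA-seq samples, and every gene of the count table was followed across these 6. The tg(*hsp70l:msgn1*) embryos, called overexpressing below, carried the full *msgn1* coding sequence behind *hsp70l*, a heat-shock promoter that works in all tissues, so that the transgene was not confined to mesoderm. They came from heterozygous fish outcrossed to wild type, and dissected embryos of the Tüpfel long fin background that lacked the transgene by PCR were pooled as the wild-type group. Both groups had the same 30 min heat shock in early somite stages and 3 h of recovery before the tailbud was cut off behind the youngest somite, and each sample pooled 10 tailbuds. The labels give the heat shock as 28 degrees and the study's methods give a higher temperature. The other 3 samples, tg(*hsp70l:tbx16*), called *tbx16* samples, had the same heat shock, came from homozygous fish outcrossed to wild type, and entered the same fit.

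The vertebrate tailbud holds progenitors that feed the spinal cord, the notochord and the paraxial mesoderm, which segments into somites. *msgn1* encodes a basic helix-loop-helix transcription factor of the presomitic mesoderm (PSM), and in zebrafish it acts with the T-box factor Tbx16 to move progenitors out of the tailbud and towards the PSM. Wnt, Fgf and BMP ligands maintain the progenitors, and retinoic acid made by more anterior mesoderm opposes them. The comparison addressed which genes respond within hours when *msgn1* is forced on.

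Total counts per sample were between 30750552 and 38010466 in overexpressing tailbuds and between 34971233 and 43889121 in wild type. Markers of the tailbud were well detected in all 6 samples, among them *tbx6* with 48302, 42135 and 52483 normalized counts (counts scaled by TMM to the mean library) in overexpressing replicates 1, 2 and 3, against 37530.1, 41076 and 34834 in wild type, and *cdx4* with 34524, 33478 and 35080.5 against 33183, 35936 and 35999. Keratin genes of the skin were well detected too, *krt4* with 232223, 131489 and 65937 in overexpressing tailbuds against 129730, 218085 and 56776 in wild type, so the cut piece was not mesoderm alone. In pooled tissue, fewer cells of a type and less RNA per cell cannot be told apart. Overexpressing replicates 1 and 3 stood apart from replicate 2: the 10 most abundant genes took 8.59%, 5.92% and 8.68% of the counts in overexpressing replicates 1, 2 and 3, against 6.1%, 6.65% and 5.49% in wild type, and the TMM scaling factors were 0.807, 0.992 and 0.867 against 1.00, 0.980 and 1.05.

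*msgn1* itself had 76390.2, 57136 and 78341 normalized counts in overexpressing tailbuds, against 29309, 35589.7 and 28072 in wild type, with no overlap between the groups. Its level was 2.28-fold higher in overexpressing tailbuds (log2 fold change 1.19 ± 0.20 SE, edgeR adjusted p = 0.0262, n = 3 each), and overexpressing replicate 2 had the lowest of the raised values. Reads of the transgene and of the native gene share the coding sequence and are counted together. On leaving out 1 sample, the call was lost for *msgn1* (overexpressing replicate 1 or 3, *tbx16* replicate 2, any wild-type sample, edgeR adjusted p up to 0.147).

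Across the transcriptome, 170 of 19914 tested genes (0.854%) had an adjusted p under 0.05 in edgeR's quasi-likelihood test and are called differentially expressed genes (DEGs). Of these, 99 were lower (0.497%) and 71 higher (0.357%) in overexpressing tailbuds. At least a 1.5-fold change was found in 162 DEGs (0.813%), 94 of them lower (0.472%) and 68 higher (0.341%). An unadjusted p under 0.05 was reached by 2811 genes (14.1%), 1331 of them lower (6.68%) and 1480 higher (7.43%). The median fold change was 2.06 among the lower and 2.16 among the higher DEGs, and 7 lower and 13 higher DEGs changed by at least 4-fold. Every one of the 170 had all 3 overexpressing samples on one side of all 3 wild-type samples, a separation that 3708 of the tested genes showed (18.6%), 1948 of them lower (9.78%) and 1760 higher (8.84%). Overexpressing replicate 2 was the sample nearest to wild type for 75 of the 170 DEGs, replicate 3 for 60 and replicate 1 for 35. For a single gene the smallest two-sided p that an exact permutation test of 3 and 3 samples allows is 0.1. An adjusted p below that rests on the count model of edgeR, which also draws on the variance estimates of all genes together.

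The direction of every DEG held in each alternative that tested it, and the number of DEGs did not. Since no DEG had overlap between the groups, leaving out 1 sample could hardly turn a sign. The kept direction is therefore no added support. With DESeq2, run on all 31956 genes with a name in the count table, 703 passed the same threshold, 417 lower and 286 higher, which included all 170. With scaling by library size alone, 147 of 191 DEGs were lower (77.0%, against 58.2% with TMM scaling), and the median log2 fold change of all tested genes moved to -0.20 from -0.02. The number of DEGs was 73, 1198 and 90 without overexpressing replicate 1, 2 and 3, and 37, 48 and 66 without wild-type replicate 1, 2 and 3. Of the 170 DEGs, 35 had an adjusted p under 0.05 in all 9 fits with 1 sample left out, 15 of them lower and 20 higher. Each such fit has 1 sample fewer, and the part of that smaller number in a lost call was not tested.

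**Figure D1:**
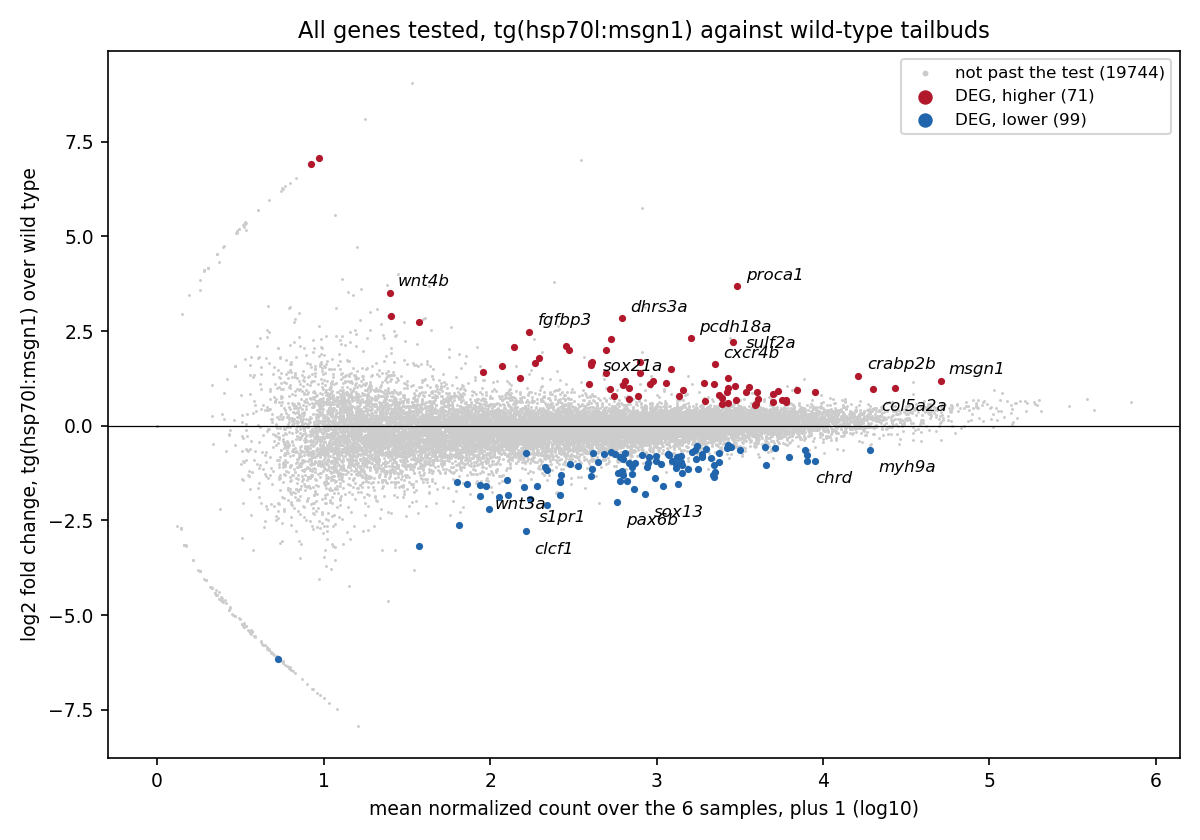
Log2 fold change of overexpressing over wild-type tailbuds (vertical axis) for all 19914 tested genes by their mean normalized count over the 6 samples (horizontal axis, log10 of the mean plus 1), with the 71 higher DEGs in red and the 99 lower DEGs in blue. Most DEGs have a mean of at least 100 normalized counts (90 of the lower and 65 of the higher), and the arcs at the left hold genes at 0 in every sample of 1 group, whose fitted fold change is no bound.

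The largest increase among genes with a mean of at least 100 counts was in *proca1*, with 6097, 5610.1 and 5279 normalized counts in overexpressing tailbuds, against 495, 477 and 352 in wild type, a 12.8-fold difference (log2 fold change 3.68 ± 0.27 SE, edgeR adjusted p = 6.73e-04). Next came *dhrs3a*, a short-chain dehydrogenase that turns retinaldehyde back into retinol, with 1146, 1099 and 1012 against 162, 114 and 175 in wild type (log2 fold change 2.84 ± 0.24 SE, edgeR adjusted p = 0.00142). Both genes had no wild-type value within 5-fold of any overexpressing value. *pcdh18a*, a protocadherin of cell adhesion, had 2565, 2827 and 2629.8 in overexpressing tailbuds, against 454, 419.6 and 734 in wild type (log2 fold change 2.32 ± 0.34 SE, edgeR adjusted p = 0.0118). *sulf2a*, an extracellular sulfatase that trims heparan sulfate and so alters the binding of growth factors, had 4516, 5358 and 4338 against 1093, 922 and 1051 (log2 fold change 2.21 ± 0.23 SE, edgeR adjusted p = 0.00312). *fgfbp3*, a secreted carrier of Fgf ligands, had 303, 297 and 272 in overexpressing tailbuds, against 57.5, 28.1 and 69.3 in wild type (log2 fold change 2.48 ± 0.31 SE, edgeR adjusted p = 0.00568). In each of these 3 genes the overexpressing replicates lay within 1.5-fold of one another, and the wild-type spread was the wider one in *pcdh18a* and *fgfbp3*.

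The rest of the 15 largest increases held further secreted, signalling and nuclear factors. *pcolce2a*, an enhancer of procollagen processing, was 4.85-fold higher in overexpressing tailbuds, *dachd*, a dachshund-family nuclear factor, 4.32-fold, and *foxd2*, a forkhead factor, 3.19-fold. *cited1*, a transcriptional coregulator, was 3.18-fold higher, *nr1d2a*, a nuclear receptor of the circadian clock, 4.19-fold, and *rab3db*, a small GTPase of vesicle release, 3.99-fold. The others were the ion channel gene *hcn2b* (3.48-fold), the kinase gene *tnk2b* (3.17-fold), *bzw2* (3.21-fold) and *si:ch211-216b21.2* (3.97-fold). *proca1*, *dhrs3a*, *fgfbp3*, *pcolce2a*, *sulf2a*, *dachd*, *rab3db*, *hcn2b*, *foxd2* and *tnk2b* kept an adjusted p under 0.05 in all 9 fits with 1 sample left out. On leaving out 1 sample, the call was lost for *pcdh18a* and *si:ch211-216b21.2* (wild-type replicate 1 or 2, edgeR adjusted p up to 0.089 and 0.0696), *nr1d2a* (wild-type replicate 1 or 3, edgeR adjusted p up to 0.089) and *bzw2* and *cited1* (wild-type replicate 1, edgeR adjusted p up to 0.0717 and 0.0502). *zmp:0000000951* and *nek10*, both of low count, were at 0 in every wild-type sample: *zmp:0000000951* was at least 16.7-fold and *nek10* at least 14.7-fold higher, against a floor of 3 counts over the group. These bounds take the overexpressing mean without its error. Both genes passed the filter only with the *tbx16* samples present, and a fit of only the 6 samples compared did not test them. Their calls were lost without any 1 sample other than overexpressing replicate 2 (edgeR adjusted p up to 0.15 and 0.154).

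The largest decrease among genes with a mean of at least 100 counts was in *clcf1*, a cytokine of the interleukin-6 family, with 27.4, 38.7 and 55.9 normalized counts in overexpressing tailbuds, against 276, 331 and 247 in wild type (log2 fold change -2.79 ± 0.35 SE, edgeR adjusted p = 0.00568). *crlf1a*, whose mammalian counterpart is the secreted partner of that cytokine, was singled out after its values were seen and had 595, 627 and 594 against 1090.2, 1062 and 923 in wild type (log2 fold change -0.76 ± 0.11 SE, edgeR adjusted p = 0.0115). *tspeara* had 92, 81.8 and 74.2 in overexpressing tailbuds, against 340.3, 352 and 372 in wild type (log2 fold change -2.10 ± 0.20 SE, edgeR adjusted p = 0.00304). The groups stood far apart in *clcf1* and *tspeara*, whose highest overexpressing sample was under 1 in 3 of the lowest wild-type sample. *sox13*, an HMG-box transcription factor, had 265, 449.8 and 427 in overexpressing tailbuds, against 1287, 1254 and 1440.4 in wild type (log2 fold change -1.80 ± 0.21 SE, edgeR adjusted p = 0.00504). *mmp9*, a secreted matrix metalloproteinase, had 424, 794 and 408 against 1679, 1771 and 1446 (log2 fold change -1.59 ± 0.25 SE, edgeR adjusted p = 0.0181), with overexpressing replicate 2 the nearest to wild type. *met*, the receptor of hepatocyte growth factor, was 3-fold lower in overexpressing tailbuds, *gdf6b*, a BMP-family ligand, 2.81-fold, and *cyp1a*, the detoxifying enzyme induced through the aryl hydrocarbon receptor, 3.52-fold. Further large decreases were in *sele* (3.57-fold), an adhesion molecule gene, *c1qtnf12* (3.71-fold), *anos1b* (3.08-fold), which encodes a secreted matrix protein, and *prss35* (2.77-fold), a serine protease gene. *pax6b*, *s1pr1*, *bmp2a* and *tll1* complete the 15 and are described with their pathways. *CABZ01102517.1*, of low count, was at 0 in every overexpressing sample and at least 6.81-fold lower than in wild type, with the wild-type mean taken without its error. It passed the filter only with the *tbx16* samples present (245, 159.5 and 149.3 normalized counts there), and a fit of only the 6 samples compared did not test it. Its call was lost without any 1 sample other than overexpressing replicate 2 (edgeR adjusted p up to 0.132). Of these, *clcf1*, *tspeara* and *sox13* passed in every one of the 9 leave-one-out fits. The call was lost in fits with 1 sample left out for *crlf1a* (wild-type replicate 1 or 2, edgeR adjusted p up to 0.089), *c1qtnf12* (overexpressing replicate 1 or 3, wild-type replicate 1 or 3, edgeR adjusted p up to 0.0696), *sele* (overexpressing replicate 1 or 3, *tbx16* replicate 2, any wild-type sample, edgeR adjusted p up to 0.156), *cyp1a*, *mmp9* and *prss35* (overexpressing replicate 1 or 3, wild-type replicate 1 or 2, edgeR adjusted p up to 0.0778, 0.0856 and 0.111), *anos1b* (wild-type replicate 1, edgeR adjusted p up to 0.0701) and *met* and *gdf6b* (overexpressing replicate 1 or 3, any wild-type sample, edgeR adjusted p up to 0.151 and 0.0934).

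**Figure D2:**
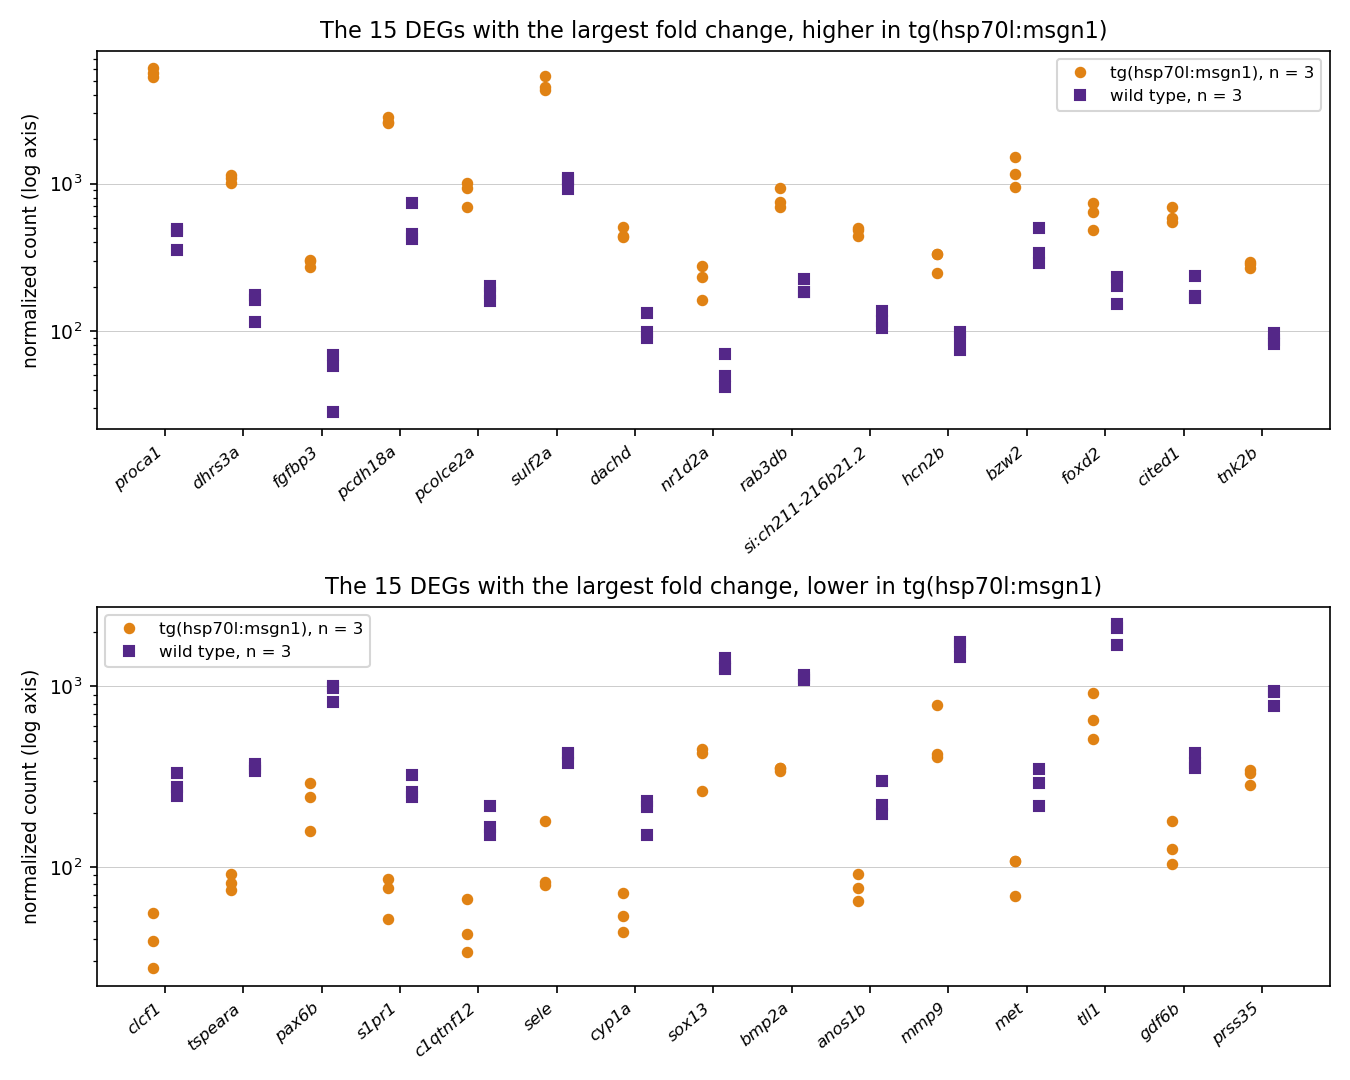
Normalized counts (vertical axis, log scale) of the 15 DEGs with the largest increase (upper panel) and the 15 with the largest decrease (lower panel) among those with a mean of at least 100 counts, 1 point per sample, with overexpressing tailbuds (circles) left of wild type (squares). In all 30 genes the 3 overexpressing samples lie on one side of the 3 wild-type samples, which was a condition of the rule that picked them and holds for every DEG.

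Functions, signals and tissues were then read through 46 lists of genes. They name 778 genes, of which 740 were tested, and 40 of these were DEGs, 27 lower and 13 higher. The 13 include *msgn1*, whose counts include the transgene. The other 130 DEGs were on no list. BMP and Gdf ligands had the lowest median in the fit of all samples and in each fit without 1 overexpressing sample (-0.85 to -0.77). Without overexpressing replicate 1 epidermal genes came close to it, at -0.770 against -0.774, and without overexpressing replicate 2 Fgf ligands did, at -0.772 against -0.778. The order of the other lists depended on the sample left out. Ribosomal protein genes had 0.33, 0.63 and 0.48 without overexpressing replicate 1, 2 and 3, against 0.47 with all samples. Heat-shock genes had 0.36, 0.62 and 0.03, against 0.42 with all samples, so their median was near 0 without overexpressing replicate 3. Median log2 fold changes below are to be read against -0.02 over all tested genes, and counts of members without overlap against 9.78% lower and 8.84% higher over all tested genes. Counts at an unadjusted p under 0.05 in edgeR are to be read against 14.1% of all tested genes, or 6.68% lower and 7.43% higher where a single direction is counted. Counts of signs are to be read against 10417 negative and 9459 positive fold changes among the 19914 tested genes. DESeq2 called 703 of 31956 genes, which include genes that edgeR's filter left out and genes at 0 in every sample. Only 25645 genes had any count in the 9 samples, and DESeq2's own filter can leave out more. The share among genes that DESeq2 could call, against which its calls are to be read, is therefore above 703 of 31956.

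**Figure D3:**
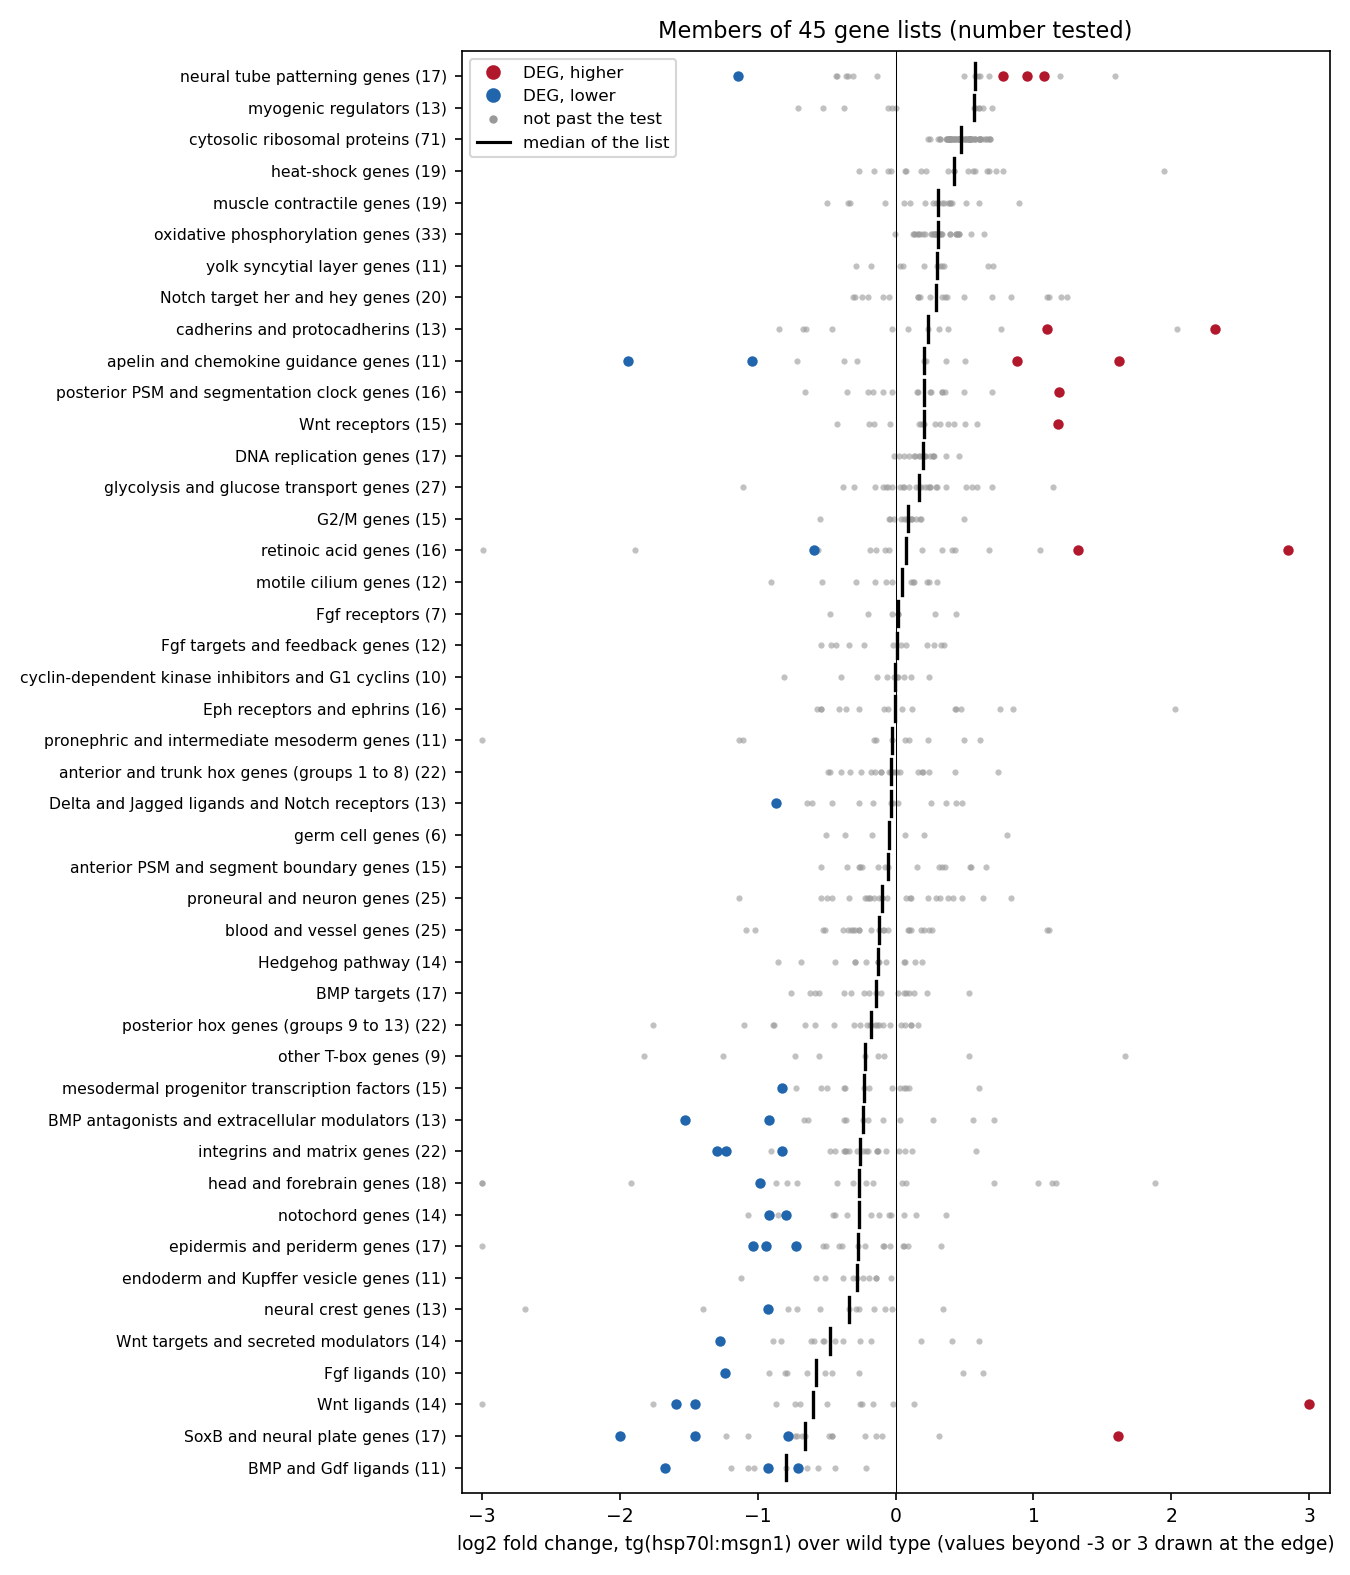
Log2 fold change of overexpressing over wild-type tailbuds (horizontal axis) for every tested member of 45 of the 46 lists (1 row per list, ordered by the median, number of tested members in brackets), with higher DEGs in red, lower DEGs in blue, other members in grey and the median as a bar. All 11 BMP and Gdf ligands lie left of 0, and all 71 ribosomal protein genes lie right of 0 in a narrow band without a DEG.

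**Figure D4:**
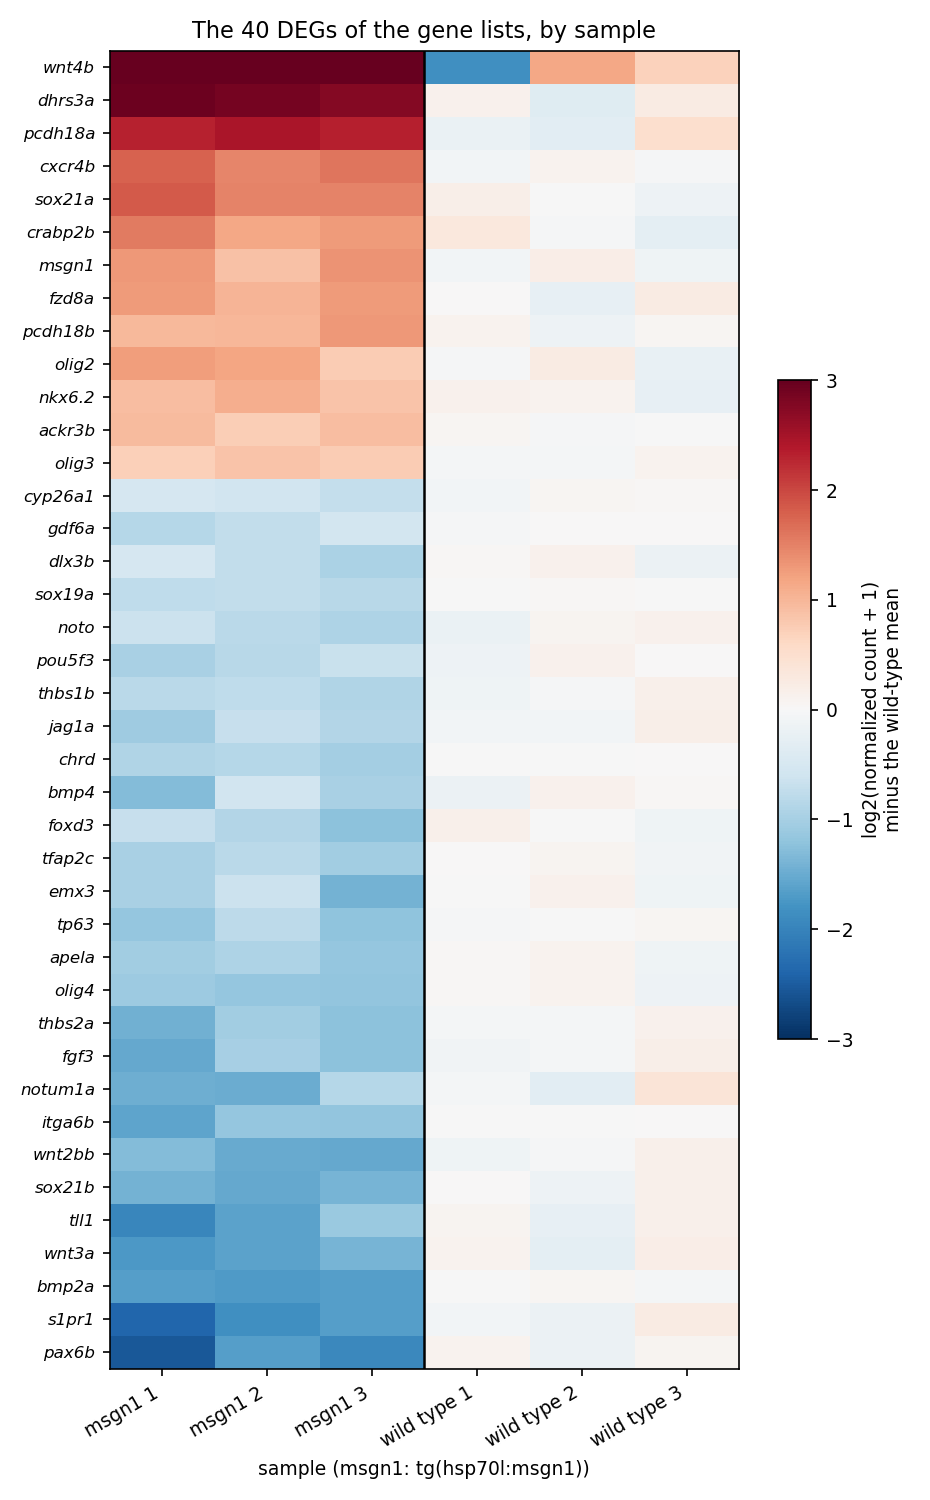
The 40 DEGs of the lists (rows) in the 6 samples (columns, overexpressing left of wild type), coloured by log2(normalized count + 1) minus the wild-type mean, with the scale ending at -3 and 3. All 3 overexpressing columns have the same colour side in each row, and *wnt4b*, which had few counts in wild type, varies most among the wild-type samples.

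BMP signalling patterns the ventral and posterior embryo, and its DEGs were lower in overexpressing tailbuds. Of 11 tested BMP and Gdf ligands, 3 were lower DEGs and none was higher, all 11 fold changes were negative, 9 had an unadjusted p under 0.05, 8 had no overlap between the groups, and the median log2 fold change was -0.80. *bmp2a* had 352, 340.4 and 355 normalized counts in overexpressing tailbuds, against 1114, 1154 and 1078 in wild type (log2 fold change -1.68 ± 0.12 SE, edgeR adjusted p = 6.73e-04). The replicates of each group agreed closely, and the difference was 3.19-fold. *bmp4*, a ventral ligand, had 657, 1081 and 821 in overexpressing tailbuds, against 1431, 1781 and 1666 in wild type (log2 fold change -0.93 ± 0.17 SE, edgeR adjusted p = 0.0352). *gdf6a*, a dorsally expressed ligand, had 442, 478 and 547 against 779, 810 and 808 (log2 fold change -0.71 ± 0.14 SE, edgeR adjusted p = 0.0463). The groups did not overlap in either gene, although overexpressing replicate 2 came within 1.5-fold of wild type in *bmp4* and overexpressing replicate 3 in *gdf6a*. Other ligands did not pass the test: *bmp6* had 123, 172 and 139.8 in overexpressing tailbuds, against 225, 366 and 298 in wild type (adjusted p = 0.125), and *gdf11*, which controls the end of body elongation in mouse, had 569.5, 507 and 597 against 858, 956 and 1093 (adjusted p = 0.142). *bmp2b* overlapped, with 599, 696 and 846 against 801, 838 and 843. *gdf6b*, among the largest decreases above, was not on the list.

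Extracellular modulators of BMP went the same way at 2 of 13 members, although they act in opposite directions on the ligands. *chrd*, the secreted antagonist Chordin made by the notochord progenitors, had 5629, 5760.4 and 5190.4 normalized counts in overexpressing tailbuds, against 10454, 10385 and 10531 in wild type (log2 fold change -0.92 ± 0.13 SE, edgeR adjusted p = 0.0125). *tll1*, a metalloprotease that cleaves Chordin, had 512, 652 and 920.4 against 2115, 1689 and 2211 (log2 fold change -1.53 ± 0.22 SE, edgeR adjusted p = 0.0118). Both fell in all 3 overexpressing samples, and *tll1* ranged more widely among them. The other 11 members did not pass, with *nog2*, a second antagonist, at 518, 557 and 606 against 832, 900 and 932 (adjusted p = 0.208). No DEG was found by edgeR among 17 BMP targets (5 at an unadjusted p under 0.05 and 3 called by DESeq2), whose median log2 fold change was -0.14: *id1* overlapped, with 29180.2, 31252 and 22860.1 in overexpressing tailbuds against 25227, 23395 and 22501 in wild type, and *msx3* did not, with 2589.5, 3103 and 2466 against 3510.4, 3972 and 4764 (adjusted p = 0.0844). All 9 leave-one-out fits called *bmp2a*. An adjusted p under 0.05 was not reached in every leave-one-out fit for *bmp4* (overexpressing replicate 1 or 3, any *tbx16* sample, any wild-type sample, edgeR adjusted p up to 0.145), *gdf6a* (overexpressing replicate 1 or 3, *tbx16* replicate 2 or 3, any wild-type sample, edgeR adjusted p up to 0.173), *chrd* (overexpressing replicate 1 or 3, any wild-type sample, edgeR adjusted p up to 0.0834) and *tll1* (wild-type replicate 1 or 3, edgeR adjusted p up to 0.0717).

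Among 14 tested Wnt ligands, 2 were lower and 1 was a higher DEG, 12 fold changes were negative, and the median was -0.60. *wnt3a*, a ligand of the tailbud progenitors, had 41.9, 45.3 and 52.3 normalized counts in overexpressing tailbuds, against 149.6, 113 and 159.8 in wild type (log2 fold change -1.60 ± 0.26 SE, edgeR adjusted p = 0.0244). *wnt2bb* had 394, 338 and 333 against 890.4, 947 and 1080.3 (log2 fold change -1.45 ± 0.17 SE, edgeR adjusted p = 0.00418). The noncanonical ligands of cell movement *wnt11* and *wnt5b* did not pass, with *wnt11* at 2939.6, 2858 and 3127 in overexpressing tailbuds against 3605, 3495 and 3469 in wild type (adjusted p = 0.718), and *wnt5b* overlapping. *wnt4b*, a floor plate ligand, had 29, 43.1 and 59.6 in overexpressing tailbuds, against 0, 7 and 4.8 in wild type (log2 fold change 3.51 ± 0.67 SE, edgeR adjusted p = 0.0452). With 1 wild-type sample at 0, the size of that change carried the widest error of the Wnt DEGs.

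Of 15 Wnt receptors, 11 fold changes were positive and 1 was a higher DEG, and the median of 0.20 was 0.02 with scaling by library size alone. *fzd8a*, a Frizzled receptor, had 1392, 1177 and 1395 normalized counts in overexpressing tailbuds, against 581, 486 and 683 in wild type (log2 fold change 1.18 ± 0.16 SE, edgeR adjusted p = 0.00899). *fzd2* had 15095, 12036 and 15536 against 9663, 9635 and 8993 without passing (adjusted p = 0.0714). Of 14 targets and secreted modulators, 11 fold changes were negative and 1 was a DEG. *notum1a*, a Wnt target whose product removes the lipid from Wnt ligands, had 355, 350.4 and 546 in overexpressing tailbuds, against 947, 791 and 1285 in wild type (log2 fold change -1.27 ± 0.25 SE, edgeR adjusted p = 0.0466). *lef1*, a transcription factor of the pathway and itself a target, had 3811, 4592 and 3489 against 5513, 5871 and 6566 (adjusted p = 0.0826), and *axin2*, a feedback inhibitor, had 3196, 4053 and 2795 against 4795, 4085 and 4738 (adjusted p = 0.215). The related target genes *sp5a* and *sp5l* stood on opposite sides, *sp5a* with 1452, 2082 and 1193 against 2854, 2959.6 and 2610.3 and *sp5l* with 14264, 14783 and 13089.7 against 8932, 9912 and 8879, neither past the test (adjusted p = 0.0996 and 0.271). Outside the lists, and singled out after their values were seen, the Wnt agonist gene *rspo2* had 126, 175 and 158 in overexpressing tailbuds, against 380.4, 392 and 368 in wild type (log2 fold change -1.31 ± 0.22 SE, edgeR adjusted p = 0.0275). The Wnt antagonist gene *frzb* had 952, 929.5 and 807 against 376, 393 and 424 (log2 fold change 1.17 ± 0.16 SE, edgeR adjusted p = 0.00878). *wnt2bb* passed with any 1 of the 9 samples left out. Calls lost in fits with 1 sample left out were those of *wnt3a* and *rspo2* (overexpressing replicate 1 or 3, any wild-type sample, edgeR adjusted p up to 0.13 and 0.127), *wnt4b* (overexpressing replicate 1 or 3, any *tbx16* sample, any wild-type sample, edgeR adjusted p up to 0.128), *fzd8a* and *frzb* (wild-type replicate 1 or 2, edgeR adjusted p up to 0.0717 and 0.0717) and *notum1a* (overexpressing replicate 1, *tbx16* replicate 2 or 3, any wild-type sample, edgeR adjusted p up to 0.17).

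Fgf signalling keeps the posterior PSM immature. Of 10 tested ligands, 1 was a lower DEG, 7 had no overlap with lower values and 1 had no overlap with higher values, and the median was -0.58. *fgf3* had 690.5, 995 and 847 normalized counts in overexpressing tailbuds, against 1834, 1919 and 2235 in wild type (log2 fold change -1.24 ± 0.15 SE, edgeR adjusted p = 0.00544). *fgf8a* had 3633, 4184 and 2708 against 5671, 5992 and 4743 (adjusted p = 0.261), *fgf4* had 481, 620 and 468 against 830.2, 976 and 909.9 (adjusted p = 0.122), and *fgf10b* had 465, 390.1 and 348 against 703, 678 and 718 (adjusted p = 0.074). *fgf17* lay on the other side, with 3161, 3469 and 2819.5 in overexpressing tailbuds against 2381, 2079 and 2273 in wild type (adjusted p = 0.262). By edgeR, neither the 7 receptors (1 at an unadjusted p under 0.05 and 1 called by DESeq2) nor the 12 targets and feedback genes (5 at an unadjusted p under 0.05 and 2 called by DESeq2) held a DEG, and their medians were 0.02 and 0.01, both of which turned negative with scaling by library size alone (-0.17 each). Targets were divided: the phosphatase gene *dusp6* had 15026, 12909 and 15946 in overexpressing tailbuds against 18812, 19469 and 20816 in wild type, and the transcription factor gene *etv5b* had 16510, 14757 and 17969 against 13258, 13943 and 13366, with neither past the test (adjusted p = 0.242 and 0.293). All 9 leave-one-out fits called *fgf3*.

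Retinoic acid genes held 3 DEGs among 16 tested members, 2 higher and 1 lower, with a median of 0.07 that was -0.11 with scaling by library size alone. *cyp26a1*, the enzyme that degrades retinoic acid in the tailbud, had 4377, 4109 and 3765 normalized counts in overexpressing tailbuds, against 5810.3, 6388 and 6290.2 in wild type (log2 fold change -0.59 ± 0.10 SE, edgeR adjusted p = 0.0271). *crabp2b*, a cellular carrier of retinoic acid, had 27069.8, 20604 and 22359 against 11434, 8979 and 7547 (log2 fold change 1.32 ± 0.16 SE, edgeR adjusted p = 0.00568), and *dhrs3a*, given above, rose 7.18-fold. Overexpressing replicate 1 was the highest for both of the raised genes and also the nearest to wild type for *cyp26a1*. *rdh10a*, the dehydrogenase that makes retinaldehyde, had 9158, 7195 and 8297 in overexpressing tailbuds, against 4191, 3654 and 4063 in wild type (log2 fold change 1.05 ± 0.31 SE, edgeR adjusted p = 0.19), which did not pass although the groups were 2.07-fold apart. *aldh1a2*, the enzyme that makes retinoic acid, overlapped, with 3733, 4056 and 3950.2 against 2887, 2601 and 3796. Of these, *crabp2b* passed in every one of the 9 leave-one-out fits. The call was lost in fits with 1 sample left out for *cyp26a1* (overexpressing replicate 1 or 3, *tbx16* replicate 2, any wild-type sample, edgeR adjusted p up to 0.132).

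In the Notch pathway, *jag1a*, a ligand, was the 1 DEG among 13 ligands and receptors, with 1068, 1380.4 and 1217 normalized counts in overexpressing tailbuds, against 2096, 2089 and 2508 in wild type (log2 fold change -0.87 ± 0.14 SE, edgeR adjusted p = 0.023). *jag1b* had 986, 1441 and 863 against 1759, 1632 and 1750.4 (adjusted p = 0.165), and the receptor gene *notch1a* overlapped. None of 20 *her* and *hey* target genes was a DEG by edgeR (7 at an unadjusted p under 0.05 and 3 called by DESeq2), 8 of them had no overlap with higher values, and the median was 0.29 (0.11 with scaling by library size alone). The highest of these fold changes were in *her13* (log2 fold change 1.24, adjusted p = 0.128) and the neural *her4* copies, of which *her4.4* had 778, 849 and 851 in overexpressing tailbuds against 373, 403 and 369.7 in wild type (adjusted p = 0.0996). The *her4* copies are near-identical, and their reads may be divided among them in an uncertain way. Hedgehog genes gave no DEG by edgeR among 14 (3 at an unadjusted p under 0.05 and 1 called by DESeq2), with the floor plate and notochord ligand *shhb* at 306, 264 and 306 against 478, 445 and 662 (adjusted p = 0.0929). On leaving out 1 sample, the call was lost for *jag1a* (overexpressing replicate 1 or 3, any wild-type sample, edgeR adjusted p up to 0.1).

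Neural plate genes held 3 lower and 1 higher DEG among 17 tested members, with 13 members without overlap and lower and a median of -0.66. *pax6b*, a neural patterning factor, had 158, 292 and 243 normalized counts in overexpressing tailbuds, against 999, 817 and 974 in wild type (log2 fold change -2.0 ± 0.21 SE, edgeR adjusted p = 0.00312). *sox19a*, an early SoxB1 factor of the neural plate, had 5958, 6098 and 5702 against 10044, 10372 and 10046 (log2 fold change -0.78 ± 0.15 SE, edgeR adjusted p = 0.0463). The paralogs *sox21a* and *sox21b* moved apart, *sox21b* with 142, 132 and 146 in overexpressing tailbuds against 385, 345 and 423 in wild type (log2 fold change -1.46 ± 0.17 SE, edgeR adjusted p = 0.00503) and *sox21a* with 709.9, 554 and 554 against 222, 195 and 176 (log2 fold change 1.61 ± 0.19 SE, edgeR adjusted p = 0.00552). Each was separated by more than 2-fold in every pairing of an overexpressing with a wild-type sample. *sox2*, shared by neural cells and bipotent progenitors, had 1938, 2371 and 1686 against 2779, 3022 and 2461 (adjusted p = 0.261), and *sox19b* had 1176, 1019 and 751 against 2103, 2092 and 1994 (adjusted p = 0.117). *pax6a*, the paralog of *pax6b*, had 423, 475 and 446 against 581, 486 and 499.7 (adjusted p = 0.847).

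Genes that pattern the neural tube along its dorsal-ventral axis were mixed, with 3 higher and 1 lower DEG among 17 and a median of 0.57 (0.37 with scaling by library size alone). *olig4*, an intermediate neural tube factor, had 1010, 955 and 936 normalized counts in overexpressing tailbuds, against 2195, 2306 and 1923 in wild type (log2 fold change -1.15 ± 0.12 SE, edgeR adjusted p = 0.00369). *olig2*, a motor neuron progenitor factor, had 960, 921 and 689 against 395, 482 and 345 (log2 fold change 1.07 ± 0.21 SE, edgeR adjusted p = 0.0484), *olig3*, a dorsal progenitor factor, had 673, 740.5 and 696 against 393, 394 and 441 (log2 fold change 0.78 ± 0.15 SE, edgeR adjusted p = 0.0466), and *nkx6.2*, a ventral factor, had 1836, 2074 and 1754 against 1060.1, 1051 and 823 (log2 fold change 0.95 ± 0.13 SE, edgeR adjusted p = 0.00929). None of 25 proneural and neuron genes was a DEG by edgeR (4 at an unadjusted p under 0.05 and 3 called by DESeq2), with the neuronal gene *elavl3* at 2814, 4849.7 and 3269 in overexpressing tailbuds against 3973, 3616 and 4896 in wild type. Of 13 neural crest genes, *foxd3*, an early crest factor, was the 1 DEG, with 799, 701 and 554 against 1434, 1283 and 1192 (log2 fold change -0.93 ± 0.16 SE, edgeR adjusted p = 0.0312), and 12 of the 13 fold changes were negative. Of these, *pax6b*, *sox21a*, *sox21b* and *olig4* passed in every one of the 9 leave-one-out fits. The call was lost in fits with 1 sample left out for *sox19a* (overexpressing replicate 1 or 3, *tbx16* replicate 2, any wild-type sample, edgeR adjusted p up to 0.173), *olig2* (overexpressing replicate 1 or 3, *tbx16* replicate 1 or 2, any wild-type sample, edgeR adjusted p up to 0.206), *olig3* (overexpressing replicate 1 or 3, *tbx16* replicate 2 or 3, any wild-type sample, edgeR adjusted p up to 0.224), *nkx6.2* (wild-type replicate 1, edgeR adjusted p up to 0.0502) and *foxd3* (overexpressing replicate 3, any wild-type sample, edgeR adjusted p up to 0.168).

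Among 18 tested head and forebrain genes, the 1 DEG was *emx3*, a forebrain homeobox gene, with 455, 578 and 337 normalized counts in overexpressing tailbuds, against 893, 990 and 826 in wild type (log2 fold change -0.98 ± 0.19 SE, edgeR adjusted p = 0.0484), and its relative *emx2* had 954, 1066 and 828 against 1681, 1612 and 1390.3 (adjusted p = 0.232). In this list 6 members had no overlap with lower values and 1 with higher values. The median was -0.26, and it was -0.23, -0.11 and -0.63 without overexpressing replicate 1, 2 and 3. The forebrain and eye field markers *six3b* and *otx2a* were high in overexpressing replicate 3 alone: *six3b* had 22.6, 15.5 and 264 in overexpressing tailbuds, against 17.3, 43.2 and 22.1 in wild type, and *otx2a* had 25.8, 34.3 and 249 against 71.2, 38.6 and 79. Their part in any result was not tested, and *emx3* was lowest in that same sample. No *hox* gene was a DEG by edgeR among 22 of groups 1 to 8 (3 at an unadjusted p under 0.05 and 1 called by DESeq2) or 22 of groups 9 to 13 (3 at an unadjusted p under 0.05 and 3 called by DESeq2). Genes of group 13 had the lowest fold changes, *hoxd13a* with 105, 181 and 57.1 in overexpressing tailbuds against 367, 430.1 and 371 in wild type (edgeR adjusted p = 0.0507) and *hoxa13b* with 286, 397 and 319.8 against 519, 663 and 678 (adjusted p = 0.0842). *emx3* lost its call in fits with 1 sample left out (overexpressing replicate 1 or 3, any *tbx16* sample, any wild-type sample, edgeR adjusted p up to 0.181).

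Mesodermal progenitor factors included 1 DEG among 15. In this list 7 members had no overlap with lower values and 1 with higher values. At an unadjusted p under 0.05 in edgeR, 5 were lower and 1 higher, and the median was -0.23. *pou5f3*, the zebrafish Oct4 homolog, had 857, 950.5 and 1054 normalized counts in overexpressing tailbuds, against 1519.9, 1854 and 1696 in wild type (log2 fold change -0.82 ± 0.14 SE, edgeR adjusted p = 0.0244). *tbxta*, the Brachyury homolog of tailbud progenitors and notochord, had 7764, 8020.5 and 7091 against 11734, 12621 and 13481 without passing (log2 fold change -0.73 ± 0.16 SE, edgeR adjusted p = 0.0703), and *tbx16* overlapped, with 10524, 13991 and 12816 against 13302, 14552 and 14899.9. In the notochord list of 14 genes, *noto*, the notochord-forming homeobox gene, had 1121, 1008 and 934 in overexpressing tailbuds, against 1534, 1855 and 1936 in wild type (log2 fold change -0.80 ± 0.15 SE, edgeR adjusted p = 0.0368), and *chrd* was the other DEG. The collagen genes of the notochord sheath overlapped, *col2a1a* with 22596, 28733 and 19755 against 27238, 18885 and 27483. *admp*, a BMP-family ligand of the organizer, did not overlap, with 195, 259.7 and 181 against 346, 471 and 523 (adjusted p = 0.161), and neither did the notochord and floor plate factor gene *foxa2*, which lay on the other side with 1517, 1411 and 1630.4 against 963, 1174 and 1401 (adjusted p = 0.349).

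Of 16 posterior PSM and clock genes, *msgn1*, whose counts include the transgene, was the 1 DEG. No other member was a DEG, and 4 others had no overlap and were higher. Among these was *her12*, a cyclic Notch target, with 6079, 7261 and 4652 normalized counts in overexpressing tailbuds against 3528, 3976 and 3594 in wild type (adjusted p = 0.303). *lfng*, which modifies Notch receptors, was the 1 member without overlap and lower, with 3719, 3864 and 3753 against 6113, 5768 and 6012 (adjusted p = 0.0703). Anterior PSM genes gave no DEG by edgeR among 15 (4 at an unadjusted p under 0.05 and 2 called by DESeq2). Of these, 6 had no overlap with higher values and 3 with lower values, and the median was -0.06. *meox1*, a somite homeobox gene, had 20782, 22890.1 and 17868 in overexpressing tailbuds, against 14287, 12517 and 12275 in wild type (adjusted p = 0.262), and *tcf15*, a paraxial mesoderm factor, had 9238, 7909 and 6456 against 5748, 5601 and 4789 (adjusted p = 0.354). The segment boundary factor gene *mespba* lay on the other side, with 366, 301 and 371 against 443, 390.4 and 404 (adjusted p = 0.777). None of 13 myogenic regulators passed in edgeR (5 at an unadjusted p under 0.05 and 1 called by DESeq2). Their median was 0.57 (0.38 with scaling by library size alone), and 8 fold changes were positive and 5 negative. In this list 5 members had no overlap with higher values and 2 with lower values. *myod1* had 5282, 5653 and 4733 in overexpressing tailbuds against 5133, 5289 and 5858 in wild type, and *myf5* had 12969, 13866 and 13344 against 12418, 14858 and 13596, and both overlapped. The myogenic cofactor genes *six4a* and *eya1* did not overlap, *six4a* with 3759, 3583 and 3244 against 2470.4, 2398 and 2075 (adjusted p = 0.216) and *eya1* with 1349, 1435 and 1328 against 992, 840.4 and 929 (adjusted p = 0.139). An adjusted p under 0.05 was not reached in every leave-one-out fit for *pou5f3* (overexpressing replicate 1, any wild-type sample, edgeR adjusted p up to 0.113) and *noto* (overexpressing replicate 1 or 3, *tbx16* replicate 1, any wild-type sample, edgeR adjusted p up to 0.157).

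In edgeR, no DEG was held by the 25 blood and vessel genes (5 at an unadjusted p under 0.05 and 1 called by DESeq2), the 11 kidney and intermediate mesoderm genes (4 at an unadjusted p under 0.05 and 3 called by DESeq2) or the 11 endoderm and Kupffer vesicle genes (2 at an unadjusted p under 0.05 and 0 called by DESeq2). All 11 fold changes of the last list were negative and 5 had no overlap, among them *dand5*, a Nodal antagonist of Kupffer's vesicle, with 1007, 1075 and 715 normalized counts in overexpressing tailbuds against 1405, 1655 and 1113 in wild type (adjusted p = 0.284). The vascular receptor gene *tie1* had 415, 367 and 393 in overexpressing tailbuds, against 135, 184 and 224 in wild type (adjusted p = 0.109). The blood factor gene *lmo2* had 3559, 3422 and 2761 against 4882, 5059 and 4094 (adjusted p = 0.27). The kidney factor gene *wt1a* had no count in any overexpressing sample and 21.9, 9.4 and 34.7 normalized counts in wild type, which did not pass (edgeR adjusted p = 0.0509).

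Epidermal genes held 3 DEGs among 17, all transcription factors and all lower. *tp63*, the factor that establishes the basal epidermis, had 2698, 3547 and 2629 normalized counts in overexpressing tailbuds, against 5902, 6047 and 6278 in wild type (log2 fold change -1.04 ± 0.15 SE, edgeR adjusted p = 0.011). *tfap2c* had 5999, 6741 and 5754 against 11934, 12517 and 11078 (log2 fold change -0.94 ± 0.17 SE, edgeR adjusted p = 0.0312), and *dlx3b*, a factor of the neural plate border, had 2083, 1772 and 1527 against 3015, 3252 and 2618 (log2 fold change -0.72 ± 0.13 SE, edgeR adjusted p = 0.0398). The keratin genes on the same list overlapped and varied several-fold among samples of both groups, *krt5* with 91485, 47050 and 16336 in overexpressing tailbuds against 45824, 86981 and 15758 in wild type. Summed over the list, levels were 494832, 262905 and 138991 in overexpressing replicates 1, 2 and 3, against 301499, 496852 and 138635 in wild type. Most of each sum came from *krt4* and *krt5*, so it could not show the pattern of the 3 DEGs. Of the 17 fold changes 13 were negative, with a median of -0.27. On leaving out 1 sample, the call was lost for *tp63* (overexpressing replicate 1, wild-type replicate 1 or 2, edgeR adjusted p up to 0.0642), *tfap2c* (overexpressing replicate 1 or 3, any wild-type sample, edgeR adjusted p up to 0.131) and *dlx3b* (overexpressing replicate 3, any *tbx16* sample, any wild-type sample, edgeR adjusted p up to 0.174).

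Genes of cell guidance changed in both directions, with 2 higher and 2 lower DEGs among 11. *cxcr4b*, a chemokine receptor that guides migrating cells, had 3753, 3048 and 3329 normalized counts in overexpressing tailbuds, against 1034, 1189.9 and 1076 in wild type (log2 fold change 1.62 ± 0.15 SE, edgeR adjusted p = 0.00234). *ackr3b*, a scavenger receptor of the same chemokine, had 4727, 4082 and 4653 against 2519.7, 2392 and 2398 (log2 fold change 0.88 ± 0.10 SE, edgeR adjusted p = 0.00395). The ligand genes *cxcl12a* and *cxcl12b* overlapped between the groups. *apela*, a peptide ligand of the apelin receptor that directs mesoderm movement, had 1438, 1562 and 1320.4 in overexpressing tailbuds, against 3058, 3168 and 2692 in wild type (log2 fold change -1.05 ± 0.17 SE, edgeR adjusted p = 0.0224), and *s1pr1*, a sphingosine-1-phosphate receptor, had 51.6, 76.3 and 86.3 against 261, 243 and 324 (log2 fold change -1.94 ± 0.28 SE, edgeR adjusted p = 0.0118). *aplnr2*, a receptor gene of the apelin family outside the list and singled out after its values were seen, had 804, 982 and 1066 in overexpressing tailbuds, against 1721, 1806 and 1994 in wild type (log2 fold change -0.95 ± 0.17 SE, edgeR adjusted p = 0.0363). The receptor genes *aplnra* and *aplnrb* lay on the other side without passing, *aplnra* with 4080.3, 4868 and 3931 against 3421, 3466 and 3127 (adjusted p = 0.193).

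Adhesion and matrix genes also divided. Of 13 cadherins, *pcdh18a* (given above) and *pcdh18b* were higher, *pcdh18b* with 1144, 1163 and 1441 normalized counts in overexpressing tailbuds, against 624, 520.1 and 609.5 in wild type (log2 fold change 1.1 ± 0.19 SE, edgeR adjusted p = 0.0302). *cdh11* and *cdh6*, cadherins of mesenchyme and neural tissue, had 2489.5, 2669 and 2692 against 4011, 4271 and 4213 (edgeR adjusted p = 0.0576) and 3458, 3747 and 3521 against 6412, 6241 and 6683 (edgeR adjusted p = 0.068), so neither passed, and *cdh2*, the N-cadherin of mesoderm, had 49587, 47594 and 55226 against 37949.7, 40201 and 39115 (adjusted p = 0.232). Of 22 integrins and matrix genes, 3 were lower DEGs, none was higher, 9 had no overlap with lower values, and the median was -0.26. *itga6b*, a laminin receptor subunit, had 1039, 1372 and 1349.6 in overexpressing tailbuds, against 3087, 3053 and 3123 in wild type (log2 fold change -1.30 ± 0.13 SE, edgeR adjusted p = 0.00304). *thbs2a* and *thbs1b*, thrombospondins of the matrix, had 1160, 1531 and 1331 against 3016, 3024 and 3426 (log2 fold change -1.23 ± 0.14 SE, edgeR adjusted p = 0.00477) and 442, 456 and 411 against 711, 750.4 and 859.8 (log2 fold change -0.83 ± 0.14 SE, edgeR adjusted p = 0.0262). The fibronectin genes, whose product surrounds the PSM, did not pass, *fn1a* with 41969.7, 43748 and 47769 and *fn1b* with 87662, 102255 and 96795 in overexpressing tailbuds, against 56618, 56158 and 59626 and 91634, 80876 and 91300.1 in wild type. No Eph receptor or ephrin passed among 16 in edgeR (7 at an unadjusted p under 0.05 and 4 called by DESeq2), the nearest being *ephb3a* with 4805, 4525 and 6113 against 2689, 2824 and 3624 (edgeR adjusted p = 0.0525). Of these, *cxcr4b*, *ackr3b*, *itga6b* and *thbs2a* passed in every one of the 9 leave-one-out fits. The call was lost in fits with 1 sample left out for *apela*, *pcdh18b* and *thbs1b* (overexpressing replicate 1 or 3, any wild-type sample, edgeR adjusted p up to 0.111, 0.139 and 0.123), *s1pr1* (wild-type replicate 1 or 3, edgeR adjusted p up to 0.0696), *aplnr2* (overexpressing replicate 1 or 3, *tbx16* replicate 3, any wild-type sample, edgeR adjusted p up to 0.136) and *pcdh18a* (wild-type replicate 1 or 2, edgeR adjusted p up to 0.089).

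Lists of general cell functions held no DEG in edgeR, and 3 of them moved with the libraries that stood apart. All 71 cytosolic ribosomal protein genes had positive fold changes, with a median of 0.47 (0.27 with scaling by library size alone), 41 of them did not overlap, 67 at an unadjusted p under 0.05 and 22 called by DESeq2. Their summed level was 6082800, 3729300 and 5022480 in overexpressing replicates 1, 2 and 3, against 3557490, 3682740 and 3057570 in wild type. Replicate 2 lay close to wild type and replicates 1 and 3 far above it. Oxidative phosphorylation genes had the same shape, with 32 of 33 fold changes positive (18 at an unadjusted p under 0.05 and 0 called by DESeq2) and a summed level of 233879, 161476 and 212220 in overexpressing tailbuds, against 161184, 165781 and 146688 in wild type. The 19 heat-shock genes (5 at an unadjusted p under 0.05 and 0 called by DESeq2) summed to 1046280, 669688 and 1147130 in overexpressing tailbuds, against 668434, 672148 and 717772 in wild type. *hsp70l*, the gene whose promoter drives the transgene, had 1152, 711 and 2034 against 142, 248 and 619, higher in all 3 overexpressing samples without passing (edgeR adjusted p = 0.169). The part of these differences in the DEGs was not tested.

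**Figure D5:**
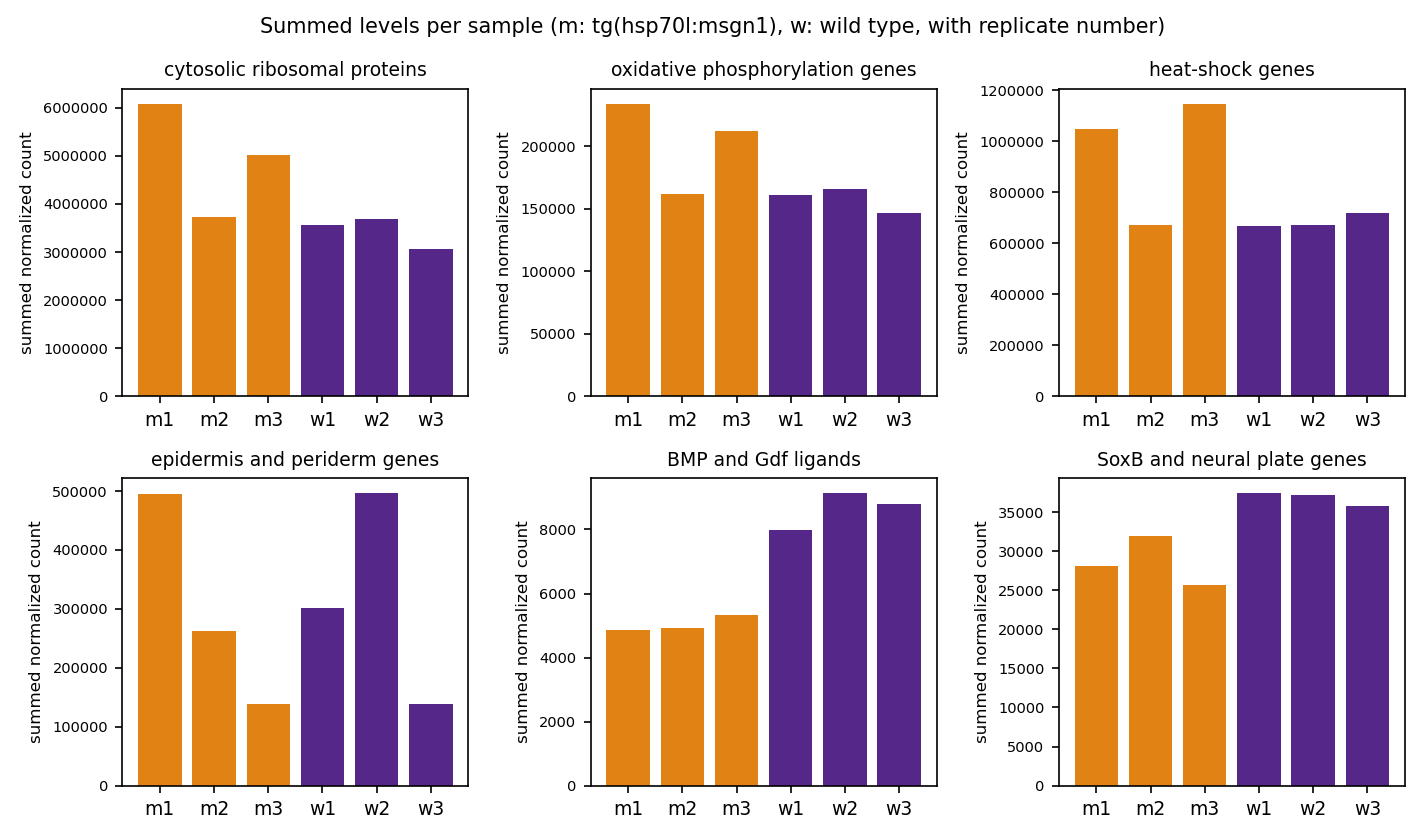
Summed normalized counts (vertical axes, each from 0) of 6 gene lists in overexpressing replicates 1 to 3 (m1 to m3, orange) and wild-type replicates 1 to 3 (w1 to w3, purple). For ribosomal, oxidative phosphorylation and heat-shock genes, m1 and m3 exceed m2 and wild type. Skin genes vary with the sample in both groups, while BMP and Gdf ligands and neural plate genes are lower in all 3 overexpressing samples.

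Genes of DNA replication and of the G2 and M phases held no DEG by edgeR or DESeq2, and 2 replication genes and 1 gene of the G2 and M phases had an unadjusted p under 0.05. The 17 DNA replication genes had a median log2 fold change of 0.20 and the 15 genes of the G2 and M phases 0.09, and with scaling by library size alone these medians were close to 0 and -0.10. The cyclin gene *ccnb1* had 15511, 12857 and 12236 normalized counts in overexpressing tailbuds, against 13018, 13607 and 11528 in wild type. *cdkn1a*, which encodes a cell cycle inhibitor, had 132, 109 and 142 against 142, 126 and 153. Both overlapped. The lists of muscle contractile, motile cilium, germ cell, yolk, other T-box, cell cycle inhibitor and glycolysis genes held no DEG in edgeR either, with medians of 0.31, 0.04, -0.05, 0.30, -0.22, 0.00 and 0.17. With scaling by library size alone these were 0.09, -0.14, -0.24, 0.09, -0.41, -0.17 and -0.03. In the same order, 3, 1, 1, 0, 2, 2 and 4 members had an unadjusted p under 0.05, and DESeq2 called 1, 1, 0, 0, 2, 1 and 1.

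The tg(*hsp70l:tbx16*) samples give a second line for these genes. Of the 99 lower DEGs, 62 were lower and 15 higher in tg(*hsp70l:tbx16*) than in wild type at an edgeR adjusted p under 0.05. Of the 71 higher DEGs, 35 were lower and 20 higher there. The share of all tested genes that passed in that line is not given here. The genes below are examples that no rule picked, and *tbxta* among them was not a DEG. *proca1* had 6097, 5610.1 and 5279 normalized counts in tg(*hsp70l:msgn1*), 118, 90.1 and 46.2 in tg(*hsp70l:tbx16*) and 495, 477 and 352 in wild type, and tg(*hsp70l:msgn1*) differed from tg(*hsp70l:tbx16*) by 6.05 ± 0.31 (log2, SE, edgeR adjusted p = 1.74e-06). Its tg(*hsp70l:tbx16*) values all lay below those of wild type. *cxcr4b* had 3753, 3048 and 3329 in tg(*hsp70l:msgn1*), 1196, 1580.3 and 1733 in tg(*hsp70l:tbx16*) and 1034, 1189.9 and 1076 in wild type, and the lines differed by 1.17 ± 0.15 (edgeR adjusted p = 2.98e-04). Against wild type, *cxcr4b* was higher in tg(*hsp70l:tbx16*) too (log2 fold change 0.45, edgeR adjusted p = 0.0396). *bmp2a* had 352, 340.4 and 355 in tg(*hsp70l:msgn1*), 43.9, 49.3 and 45.3 in tg(*hsp70l:tbx16*) and 1114, 1154 and 1078 in wild type, and the lines differed by 2.91 ± 0.14 (edgeR adjusted p = 1.31e-06). It was lower in tg(*hsp70l:tbx16*) than in wild type as well (log2 fold change -4.59, edgeR adjusted p = 2.29e-07). *tbxta* had 7764, 8020.5 and 7091 in tg(*hsp70l:msgn1*), 2882, 3911 and 4642 in tg(*hsp70l:tbx16*) and 11734, 12621 and 13481 in wild type, with a difference of 1.00 ± 0.16 (edgeR adjusted p = 0.00103). The lines came from different crosses, and line and parents cannot be told apart in these differences. Both comparisons share the wild-type samples.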

How the data were processed

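RNA was taken from pooled tailbuds in Trizol, and polyadenylated RNA was sequenced. Per the study's methods and the submitters' processing notes, the authors trimmed reads with Trim Galore 0.5.0 and aligned them to GRCz11 with HISAT2 2.1.0. The methods name StringTie for quantifying gene expression, and the deposited table holds counts per gene, not normalized. Depth was 30750552 to 43889121 counts in the 6 samples compared, and counting error alone is about 10% at 100 counts. Rows without a gene name (0.0820% to 0.101% of counts) were left out. No strand setting is given in the sources used here. Of the 170 DEGs, 164 were matched to a RefSeq gene table and 63 of those overlap another annotated gene, whose reads may be mixed.

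All 9 samples, grouped by their labels, entered 1 edgeR 4.0.16 quasi-likelihood fit (R 4.3.3, limma 3.58.1) with TMM scaling and the filterByExpr filter, which left 19914 genes. P-values were two-sided and adjusted by Benjamini-Hochberg over all of them. Normalized counts are counts divided by TMM-scaled library size and set to the mean library, and are not per length. The scripts were first tested on simulated data. The methods call the samples of a group biological replicates without saying whether they came from separate clutches, and no pair of them agreed within sampling noise. Alternatives were other scalings and filters, DESeq2 1.42.0, a fit of 6 samples, a replicate block, stricter thresholds and leaving out each sample.

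Genes were named by rule: *msgn1*, the DEGs of 46 gene lists, the 15 largest DEGs in each direction with a mean of at least 100 counts and no overlap between the groups, and, for lists with fewer than 4 DEGs, up to 4 further members with the smallest p. Other list members were added for their role, after their values were seen. The results of 1 list are not reported here. The gene lists and the rule were chosen with earlier results of these data known. Bounds were computed only for DEGs at 0 in 1 group. List members at 0 in 1 group entered their list's median with the fitted fold change. No sequence is shown, since none was used here.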

Additional observations from a re-analysis of the deposited data

How the results depend on the processing

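Each of the 170 DEGs kept its direction under every alternative that tested it, which the lack of overlap between the groups in all 170 made likely beforehand. DESeq2 called 703 genes, 417 lower and 286 higher, with 531 changed at least 1.5-fold, and scaling by library size alone left 44 higher DEGs. At an adjusted p under 0.01, edgeR called 53 genes, 20 lower and 33 higher, all 53 at least 1.5-fold. A test against a 1.5-fold change called 24, 8 lower and 16 higher. With 1 sample left out, the DEG count was between 37 (without wild-type replicate 1) and 1198 (without overexpressing replicate 2), with 16 to 459 lower, 21 to 739 higher and 37 to 806 changed at least 1.5-fold. Genes without overlap numbered 3700 to 8232, and the *msgn1* log2 fold change was 1.11 to 1.32 (edgeR adjusted p = 0.0152 to 0.147). The cause of these differences was not tested.

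Whether equal replicate numbers pair the samples was not settled. Across 13484 genes, their deviations from the group means correlated at 0.22, 0.01 and 0.64 for replicates 1, 2 and 3. Between different numbers the correlations were -0.59 to 0.54. The value of replicate 3 lay above that range and those of replicates 1 and 2 within it, and no source says that a number marks a shared clutch. With the replicate block on all 9 samples, edgeR called 85 genes, 41 lower and 44 higher, all 85 at least 1.5-fold, of which 80 were among the 170, and *msgn1* had a log2 fold change of 1.18 (adjusted p = 0.0717). With the block on the 6 samples compared, it called 96, 48 lower and 48 higher, all 96 at least 1.5-fold, of which 74 were among the 170, and *msgn1* had 1.19 (adjusted p = 0.0799).

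Of the genes named by rule, none that passed the test changed sign, and all of those had no overlap between the groups to begin with. With scaling by library size alone, the log2 fold change was -0.125 for *nanos3*, -0.0172 for *plk1* and -0.0124 for *aurkb*, all near 0. With 1 sample left out it was between -0.120 and 0.287 for *nanos3*, between -0.393 and 0.0498 for *tbx18* and between -0.341 and 1.19 for *rbp4*, and it turned sign without overexpressing replicate 1 or wild-type replicate 1 or 2 for *nanos3*, without overexpressing replicate 1 or 3 or wild-type replicate 3 for *tbx18* and without overexpressing replicate 2 for *rbp4*. Depth limits the genes near 0 counts, whose folds are given only as bounds.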
